A study of Mus musculus with 6 samples.

Results

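The 38 genes described here are established targets of the transcription factor p53, from Cdkn1a to Trp73, taken by exact symbol from a table of 23235 genes measured in sorted long-term haematopoietic stem cells (LT-HSCs). All 38 symbols were found in the table. They were split by the best known role of their products into 10 cell cycle and p53 feedback genes, 15 apoptosis genes, 7 metabolism and stress genes, 4 DNA repair genes and 2 immune genes. The list holds genes known as p53 targets and applies no threshold to values.

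The libraries came from Hmces knockout mice (3 libraries) and wild type (WT) mice (3 libraries), all aged 2 months and listed as C57BL/6. The series' design text speaks of duplicates, whereas the labels number 3 libraries a genotype, and every n, SD and p below treats these as 3 separate libraries. HMCES protects DNA at sites that have lost a base by attaching itself to them, and the study is concerned with genome integrity and self-renewal of stem cells. Each library was made from 1500 bone marrow cells sorted with antibodies to stem cell antigens, amplified by the low-input Smart-seq2 method. The sources used here do not give the nature of the Hmces allele, the antibody panel, the meaning of a 13bp tag in the titles of all 6 libraries, or whether libraries of 1 genotype came from separate mice.

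p53 is kept scarce in resting cells by the ubiquitin ligase MDM2 and is released when DNA is damaged, whereupon it binds paired short elements in DNA and switches on genes that halt the cell cycle, repair DNA or kill the cell. MDM2 is itself a p53 target, which closes a negative feedback loop. In haematopoietic stem cells p53 is known for keeping cells quiescent and for removing damaged cells after irradiation, and several of its targets, Cdkn1a and Bbc3 among them, are used as readouts of that response.

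The element that p53 binds consists of a pair of half-sites, each with a C and a G 2 bases apart at its centre. RefSeq promoter windows (GRCm38.p6), from 250 bases before to 50 bases after each start site, were available for 29 of the 38 members in 42 windows. Ptprv, Pmaip1, Trp53inp1, Zmat3, Perp, Tnfrsf10b, Xpc, Ddb2 and Rrm2b were not matched. A p53 response element was counted where both half-sites kept the C and the G, lay 0 or 1 base apart and held at most 3 mismatches to the consensus in all. The consensus reads the same on both strands, so each search covered both. The sites of the 5 tested members with at most 2 mismatches, and those of Aen and Sesn1, whose knockout and WT libraries were separate, are shown, each 5′ to 3′ on the strand of its gene, with the 4 central bases of each half-site in capitals.

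Cdkn1a, chr17:29090928-29090947, plus strand, 51 bases before a start site, 1 mismatch: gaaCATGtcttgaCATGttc
Ccng1, chr11:40755462-40755481, minus strand, 195 bases before the start site, 1 mismatch: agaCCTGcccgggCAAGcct
Gtse1, chr15:85859945-85859964, plus strand, 1 base before a start site, 1 mismatch: gagCAAGttggggCTTGcct
Rps27l, chr9:66946296-66946315, plus strand, 117 bases before a start site, 1 mismatch: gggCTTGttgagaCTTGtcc
Bax, chr7:45467079-45467099, minus strand, 201 bases before the start site, 2 mismatches: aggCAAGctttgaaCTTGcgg
Aen, chr7:78895937-78895956, plus strand, 121 bases before a start site, 3 mismatches: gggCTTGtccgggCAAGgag
Sesn1, chr10:41887266-41887285, plus strand, 173 bases before a start site, 3 mismatches: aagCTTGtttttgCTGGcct

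Such an element lay in the windows of 11 of the 29 matched members (37.9%), against 884 of 27025 genes with a promoter window (3.27%). By window it was 12 of 42 (28.6%), against 928 of 32851 (2.82%). The members were listed as p53 targets beforehand, so these shares are a description and not a test. The Gtse1 site shown overlaps a further match. Where a line above reads a start site, the gene had 2 windows and the distance is to 1 of the start sites. The second Cdkn1a window, downstream at chr17:29093519-29093818, held no match. The other members with a match were Bbc3, Cd80, Dcxr and Trp73. Fbxw7, whose libraries were also separate, held no match in its windows, nor did Phlda3 and Gdf15. With at most 2 mismatches the count was 7 members (24.1%), against 218 of all genes (0.807%). A pair of CATG cores with exactly 6 bases between them was found in 1 member, Cdkn1a, or 3.45% of those matched, and in 225 of all genes (0.833%). A match describes the letters in the window and is not evidence of binding, and elements that lie farther from the start site, as in introns, were outside it.

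Estimated depth was 9500000, 11200000 and 9300000 fragments for knockout replicates 1 to 3 and 9700000, 13200000 and 14200000 for WT replicates 1 to 3. Hmces itself, listed under its earlier symbol 8430410A17Rik, read 8.95, 0.222 and 6.95 FPKM in knockout libraries and 39.5, 45.4 and 41.0 FPKM in WT libraries. FPKM scales the fragments of a gene to its length and to the total of its library. The groups did not overlap, in the direction the labels give (exact two-sided permutation p = 0.1, the smallest that 3 against 3 libraries allow), and the log2 fold change of -3.23 had a limma adjusted p of 0.289. The first principal component placed knockout replicate 2 at 67.0 and the other 5 libraries between -33.6 and 10.1. Without that library, which had the lowest Hmces value, the log2 fold change of Hmces was smaller, -2.27, with a limma adjusted p of 0.046. Leaving out any other single library gave a limma adjusted p of 0.206 to 0.803. Stem cell markers were present, with Procr between 13.6 and 32.5 FPKM and Hlf between 8.85 and 11.4 FPKM over the 6 libraries, but Slamf1 was between 1.39 and 5.08 FPKM and Hoxb5 below 1 FPKM in each. Cd34 and Flt3, whose surface proteins LT-HSCs carry little of, read at least 453 and 121 FPKM in every library. Of the stem cell marker list, which includes both, 10 genes were tested and 0 called. The groups did not overlap for 1 (10%), against 15.8% of all genes tested. This was Ly6a, with means of 311 FPKM in knockout and 231 FPKM in WT libraries (log2 fold change 0.42, limma adjusted p = 0.488). All 15 granulocyte and monocyte markers had a positive log2 fold change. Of these, 2 were called, Mpo (limma adjusted p = 0.031) and Ctsg (limma adjusted p = 0.049), against 0.113% of all genes tested. The groups did not overlap for 13 of the 15, against 15.8% of all genes tested. Csf1r had the smallest change, 0.06, with means of 4.80 FPKM in knockout and 4.94 FPKM in WT libraries. The summed level of the 15 markers was 19320 to 25735 FPKM in knockout libraries and 6977 to 10684 FPKM in WT libraries. All 8 macrophage markers tested had a negative log2 fold change, 0 of them called (median -1.62). Their summed level was 12.9 to 94.0 FPKM in knockout libraries and 38.1 to 167 FPKM in WT libraries. Cd68 had the smallest change, -0.07, and its mean was higher in knockout (24.8 FPKM) than in WT libraries (22.2 FPKM). Of 7 mast cell, basophil and eosinophil markers, 6 were positive and 0 called, and Prg2 read 956 FPKM in knockout replicate 1 and at most 22.2 FPKM in the other libraries. The groups did not overlap for 2 of the 7 (28.6%), Prg2 and Hdc, both higher in knockout libraries, against 15.8% of all genes tested. The part that such cells have in any value below was not tested, and in bulk libraries a smaller number of cells of a type cannot be told apart from less RNA per cell.

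Most p53 targets were expressed in these cells, over a wide range. Of the 38 members, 30 had a mean of at least 1 FPKM over the 6 libraries and entered the test, and 16 of these had at least 10 FPKM. Rps27l, which encodes a ribosomal protein-like regulator of p53 stability, was the most abundant member, at percentile 98.5 of tested genes, although it belongs to a family with similar copies and its level is therefore uncertain. Tap1 (percentile 89.2), Bax (87.1), Abhd4 (85.2) and Sesn1 (83.0) followed. Each neighbouring pair in this order from Tap1 to Sesn1 had ranges over the 6 libraries that overlapped. Ptprv, at percentile 0.173, was the lowest member that entered the test.

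The 8 members below that level were Zmat3, Perp, Pmaip1, Eda2r and Trp73 of the apoptosis group, Ephx1 and Ddit4l of the metabolism group, and Cd80. Trp73, which encodes the p53 relative p73, was listed at 0 in all 6 libraries. Pmaip1, which encodes the BH3-only killer protein NOXA, read 1.37, 1.02 and 0.0437 FPKM in knockout libraries and 0, 0.991 and 0 FPKM in WT libraries. Zmat3, an RNA-binding regulator of splicing and survival, read 0.828, 1.91 and 0.452 FPKM in knockout libraries and 0.746, 0.962 and 0.268 FPKM in WT libraries. Both genes had overlapping groups and a mean under 1 FPKM, and they were not tested.

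**Figure D1:**
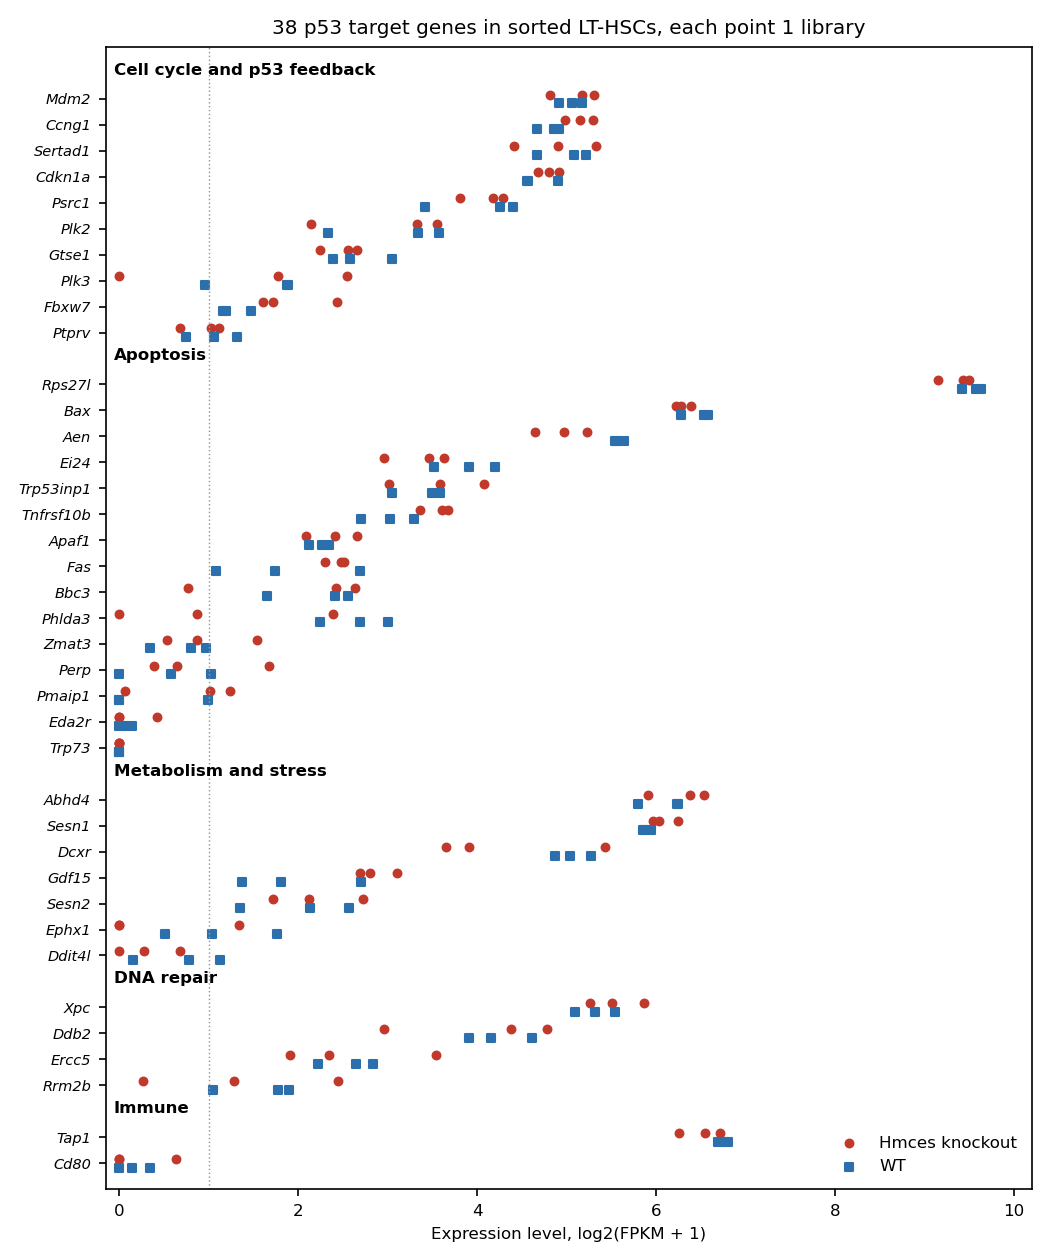
Levels of the 38 p53 target genes on a log2(FPKM + 1) axis, by functional group and from high to low within a group; red circles are the 3 Hmces knockout libraries, blue squares the 3 WT libraries, and the dotted line marks 1 FPKM. The groups lie on top of each other for most genes, Aen is the 1 tested member with every knockout value below every WT value, and the 8 genes with a mean under 1 FPKM lie near or left of the dotted line.

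The comparison set stem cells of Hmces knockout mice against those of WT mice, with no added treatment named in the labels. No p53 target passed the test in either direction. With limma on log2(FPKM + 1), 0 of 30 members were called at an adjusted p under 0.05, where 0.113% of the 11532 genes tested were called (0.104% higher and 0.00867% lower in knockout libraries, 12 genes and 1 gene). The smallest adjusted p among members was 0.394, for Aen. At an unadjusted p under 0.05 there were 3 members, Phlda3 and Aen lower and Gdf15 higher in knockout libraries, or 10% of those tested, against 9.16% of all genes tested (4.32% higher and 4.84% lower). Knockout and WT libraries were fully separate for 5 members (16.7%), 4 higher and 1 lower, against 15.8% of all genes tested (7.47% higher and 8.34% lower). Both shares were close to the background.

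The members did not lean to one side. Of the 30, 15 had a positive log2 fold change and 15 a negative one, where 48.1% of all genes tested were positive. The median was -0.02 over members and -0.01 over all genes tested. The values ran from -1.56 for Phlda3 to 0.90 for Gdf15. The median half-width of the 95% confidence interval was 0.68 on the log2 scale for members, a factor of 1.601, and for the 16 members with at least 10 FPKM it was 0.43, a factor of 1.35. For the 14 tested members under 10 FPKM it was 0.98, a factor of 1.97. The factors apply to FPKM + 1. An estimate smaller than its half-width had an interval that included 0. True changes of these sizes or below could thus be missed in the typical member of each set, even before adjustment. These intervals are unadjusted, and a call after adjustment over all genes needs a larger change. Aen, 1 of the 16, was at -0.63 with a limma adjusted p of 0.394 and was not called.

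**Figure D2:**
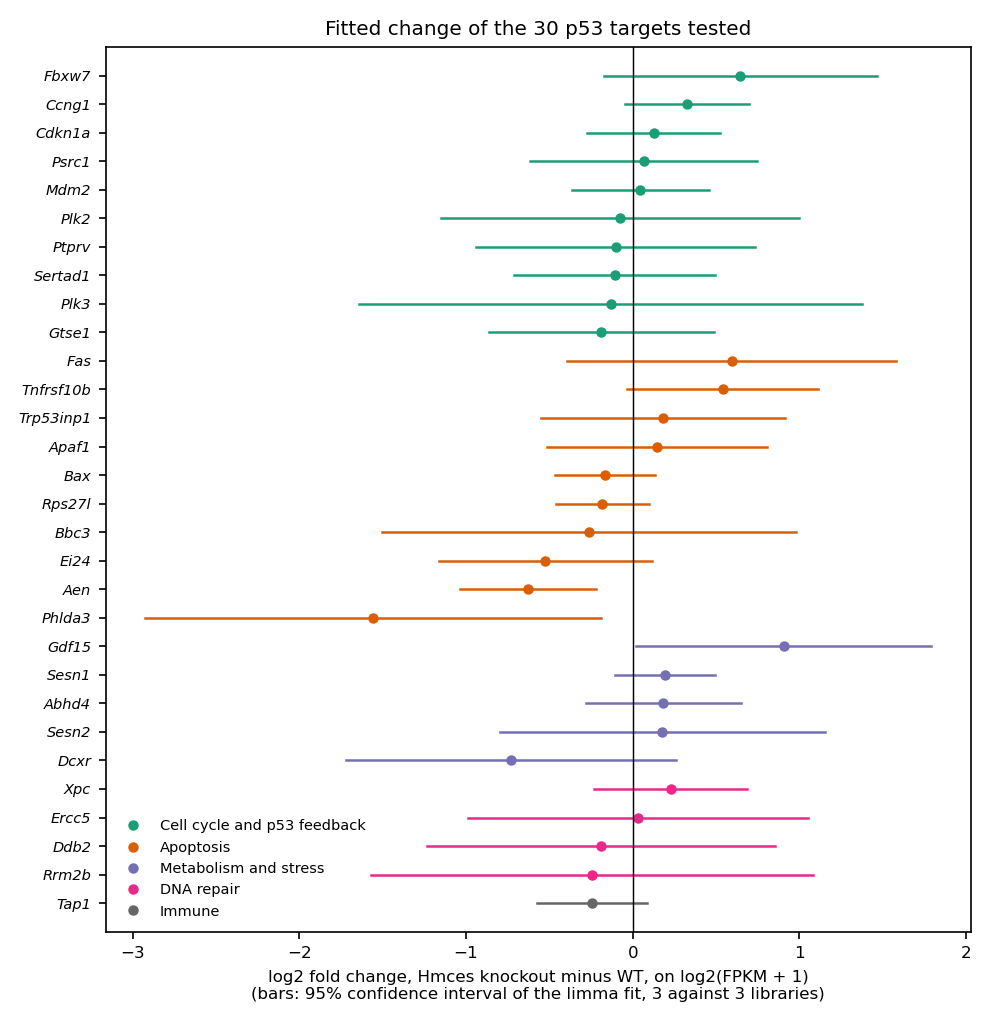
Fitted log2 fold change (Hmces knockout minus WT) of the 30 members tested, by functional group, with the 95% confidence interval of the limma fit on 3 against 3 libraries. The intervals of 27 members include 0, and those of Phlda3, Aen and Gdf15 do not before adjustment over all genes.

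Among 10 cell cycle and feedback genes, 5 log2 fold changes were positive and 5 negative, with a median of -0.01. Cdkn1a, which encodes the CDK inhibitor p21 that arrests the cycle in G1, read 29.2, 26.9 and 24.7 FPKM in knockout libraries and 22.6, 28.9 and 22.7 FPKM in WT libraries. The ranges overlapped. Its log2 fold change was 0.13 (95% interval -0.27 to 0.52, limma adjusted p = 0.844). Mdm2, which closes the feedback loop on p53, read 27.2, 38.5 and 35.0 FPKM in knockout libraries and 32.4, 29.3 and 35.1 FPKM in WT libraries. Its lowest and highest values were both knockout libraries, and the log2 fold change was 0.05 (95% interval -0.36 to 0.46, limma adjusted p = 0.959). For both genes the upper bound lies below a log2 value of 1, that is, below a doubling on this scale.

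Ccng1, which encodes cyclin G1, which brings the phosphatase PP2A to MDM2, was 1 of 2 members of this group whose libraries separated by genotype. It read 38.1, 34.4 and 30.6 FPKM in knockout libraries and 28.0, 29.3 and 24.5 FPKM in WT libraries. Every knockout value lay above every WT value, but the gap was 1.26-fold at the means (log2 fold change 0.32, 95% interval -0.05 to 0.69, limma adjusted p = 0.588). Fbxw7, the substrate receptor of a ubiquitin ligase that degrades cyclin E and MYC, read 2.30, 4.41 and 2.05 FPKM in knockout libraries and 1.29, 1.23 and 1.78 FPKM in WT libraries. These groups did not overlap either, and knockout replicate 2 was far above the rest. The means of Fbxw7 were 2.92 ± 1.30 FPKM in knockout and 1.44 ± 0.301 FPKM in WT libraries (SD, n = 3 each), with a log2 fold change of 0.64 (limma adjusted p = 0.626) that was 0.39 without knockout replicate 2.

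The other cell cycle members had overlapping groups. Sertad1, a CDK4-binding regulator, averaged 29.5 ± 9.50 FPKM in knockout and 31.2 ± 6.02 FPKM in WT libraries, with a log2 fold change of -0.11. Psrc1, a spindle protein gene, read 17.1, 13.0 and 18.6 FPKM in knockout libraries and 20.1, 18.1 and 9.73 FPKM in WT libraries. Gtse1, which restrains p53 in G2, averaged 4.65 ± 0.816 FPKM in knockout and 5.51 ± 1.59 FPKM in WT libraries, and Ptprv, a phosphatase gene of the p53 arrest programme in mice, averaged 0.934 ± 0.293 FPKM in knockout and 1.09 ± 0.405 FPKM in WT libraries (SD, n = 3 each). The stress-responsive polo-like kinase gene Plk2 read 9.02, 3.43 and 10.7 FPKM in knockout libraries and 9.14, 10.9 and 4.05 FPKM in WT libraries. Each genotype thus held 1 low library. Plk3, a second kinase of this family, read 4.83, 0 and 2.43 FPKM in knockout libraries and 2.71, 2.67 and 0.940 FPKM in WT libraries, and its exons overlap those of Tctex1d4 on the opposite strand.

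Of 15 apoptosis genes, 10 were tested, 4 with a positive and 6 with a negative log2 fold change, and the group held both members whose intervals lay wholly below 0 before adjustment. Aen, which encodes a nuclease that degrades DNA in dying cells, read 30.5, 36.3 and 24.1 FPKM in knockout libraries and 45.4, 45.8 and 48.9 FPKM in WT libraries. The WT values were tight and every knockout value lay below them, with a ratio of means of 0.648. The log2 fold change was -0.63 (SE 0.18, limma unadjusted p = 0.0077, adjusted p = 0.394). Phlda3, whose product blocks the survival kinase AKT at the membrane, read 0.828, 0 and 4.24 FPKM in knockout libraries and 3.74, 5.47 and 6.99 FPKM in WT libraries. Knockout replicates 1 and 2 were below all WT libraries, and knockout replicate 3 was above WT replicate 1. Its log2 fold change was -1.56 (SE 0.59, limma unadjusted p = 0.030, adjusted p = 0.511). Without knockout replicate 2, where it is listed at 0, the value was -1.02, and without knockout replicate 3 it was -2.21.

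The death receptor genes Tnfrsf10b and Fas had positive log2 fold changes, neither of which passed the test. Tnfrsf10b, which encodes the receptor for the ligand TRAIL, read 9.28, 11.8 and 11.2 FPKM in knockout libraries and 5.49, 7.17 and 8.79 FPKM in WT libraries. The groups did not overlap, the means were 1.501-fold apart, and the log2 fold change was 0.54 (SE 0.25, limma adjusted p = 0.563). Fas, the receptor for FAS ligand, read 3.94, 4.71 and 4.596 FPKM in knockout libraries and 2.34, 1.125 and 5.47 FPKM in WT libraries. The knockout values were close together, whereas WT replicate 3 was above all of them. The third receptor of the group, Eda2r, was at or below 0.345 FPKM in every library.

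Genes of the mitochondrial death pathway had overlapping groups. Bax, the pore-forming BCL2 family member, read 82.9, 73.9 and 76.5 FPKM in knockout libraries and 91.6, 94.5 and 76.9 FPKM in WT libraries. WT replicate 3 lay within the knockout range and the other WT libraries above it, and the log2 fold change was -0.17 (95% interval -0.47 to 0.13, limma adjusted p = 0.718), or -0.11 without WT replicate 2 and -0.26 without WT replicate 3. In the GENCODE annotation Bax overlaps exons of Gm45808 on the same strand. Bbc3, which encodes the BH3-only protein PUMA, the main p53-dependent killer of irradiated blood progenitors, read 4.37, 0.703 and 5.20 FPKM in knockout libraries and 4.87, 4.33 and 2.14 FPKM in WT libraries. The log2 fold change of Bbc3 was -0.26 (SE 0.54, limma adjusted p = 0.907) and was 0.32 without knockout replicate 2, its lowest library. Apaf1, the scaffold of the apoptosome, averaged 4.30 ± 1.05 FPKM in knockout and 3.74 ± 0.351 FPKM in WT libraries (SD, n = 3 each).

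The remaining apoptosis members also had overlapping groups. Trp53inp1, a stress protein that promotes p53 phosphorylation and autophagy, read 15.9, 7.08 and 11.004 FPKM in knockout libraries and 11.03, 7.27 and 10.3 FPKM in WT libraries (log2 fold change 0.18, limma adjusted p = 0.886). Ei24, an endoplasmic reticulum protein gene, averaged 9.39 ± 2.34 FPKM in knockout and 13.96 ± 3.51 FPKM in WT libraries (log2 fold change -0.52, limma adjusted p = 0.607). Rps27l averaged 660.0 ± 81.5 FPKM in knockout and 747 ± 54.7 FPKM in WT libraries. Perp, a membrane protein gene of desmosomes and cell death, read 0.308, 2.204 and 0.568 FPKM in knockout libraries and 1.03, 0.492 and 0 FPKM in WT libraries.

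**Figure D3:**
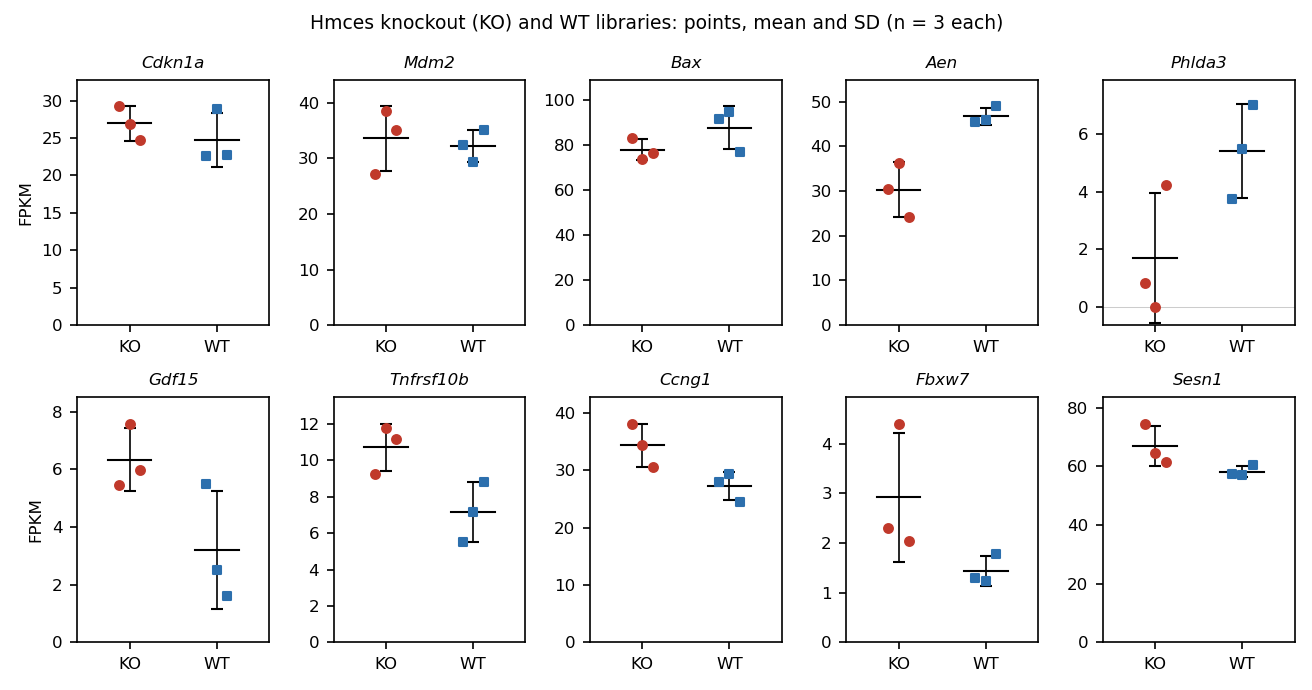
FPKM in each Hmces knockout (KO, red circles) and WT (blue squares) library, with the mean and SD of 3 libraries, for Cdkn1a, Mdm2 and Bax and for the 7 members with an unadjusted limma p under 0.05 or with groups that did not overlap. Knockout and WT libraries are separate for Aen, Tnfrsf10b, Ccng1, Fbxw7 and Sesn1, and 1 library of the opposite group reaches into the other for Phlda3 and Gdf15.

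Of 7 metabolism and stress genes, 5 were tested and 4 of these were positive (median log2 fold change 0.18). Gdf15, which encodes a stress cytokine secreted by damaged cells, read 5.47, 7.59 and 5.96 FPKM in knockout libraries and 5.49, 2.501 and 1.59 FPKM in WT libraries. WT replicate 1 was level with the lowest knockout library, and the other WT libraries were lower. The means were 1.98-fold apart, with a log2 fold change of 0.90 (SE 0.38, limma unadjusted p = 0.0464, adjusted p = 0.538). Sesn1, a sestrin that restrains mTORC1 and oxidative stress, read 74.6, 64.6 and 61.4 FPKM in knockout libraries and 57.2, 56.9 and 60.5 FPKM in WT libraries. The groups did not overlap, by less than 1 FPKM, and the log2 fold change was 0.19 (SE 0.13, limma adjusted p = 0.699), or 0.11 without knockout replicate 1. Its relative Sesn2 averaged 3.77 ± 1.70 FPKM in knockout and 3.28 ± 1.69 FPKM in WT libraries (SD, n = 3 each).

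The enzyme genes of this group had overlapping libraries. Dcxr, which encodes a xylulose reductase, read 14.1, 11.6 and 42.2 FPKM in knockout libraries and 31.9, 28.3 and 37.6 FPKM in WT libraries. Knockout replicate 3 was the highest of all 6 and the other knockout libraries the lowest (log2 fold change -0.73, SE 0.43, limma adjusted p = 0.650, and -0.39 without knockout replicate 2). Abhd4, a lipid hydrolase gene, averaged 77.6 ± 16.6 FPKM in knockout and 67.8 ± 11.4 FPKM in WT libraries. Ephx1, the microsomal epoxide hydrolase gene, read 0, 1.52 and 0 FPKM in knockout libraries and 0.422, 2.39 and 1.06 FPKM in WT libraries. Ddit4l, an mTORC1 inhibitor gene, did not exceed 1.18 FPKM in any library.

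DNA repair genes had no common sign, with 2 of 4 members positive and a median log2 fold change of -0.08. Xpc, which encodes the damage sensor of global nucleotide excision repair, read 44.6, 57.2 and 37.4 FPKM in knockout libraries and 33.2, 45.5 and 39.0 FPKM in WT libraries (log2 fold change 0.23, limma adjusted p = 0.748). The value was 0.069 without knockout replicate 2, the highest library. Ddb2, the ultraviolet damage sensor of the same pathway, read 19.8, 6.76 and 26.4 FPKM in knockout libraries and 16.8, 23.6 and 14.01 FPKM in WT libraries. Its knockout libraries were both the lowest and the highest, and its exons overlap those of Acp2 on the opposite strand. Rrm2b, the ribonucleotide reductase subunit that supplies nucleotides outside S phase, read 1.43, 4.46 and 0.199 FPKM in knockout libraries and 1.07, 2.73 and 2.43 FPKM in WT libraries. Ercc5, the endonuclease gene of excision repair, averaged 5.81 ± 4.20 FPKM in knockout and 5.02 ± 1.25 FPKM in WT libraries (SD, n = 3 each).

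Of the immune genes, Tap1, the endoplasmic reticulum peptide transporter of the MHC class I pathway, read 92.5, 75.6 and 104 FPKM in knockout libraries and 110.5, 102.5 and 107 FPKM in WT libraries. Knockout replicate 3 lay within the WT range and the other knockout libraries below it (log2 fold change -0.24, limma adjusted p = 0.645, and -0.12 without knockout replicate 2). Tap1 shares exon sequence with Psmb9 on the opposite strand. The costimulatory ligand gene Cd80 did not exceed 0.559 FPKM in any library.

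**Figure D4:**
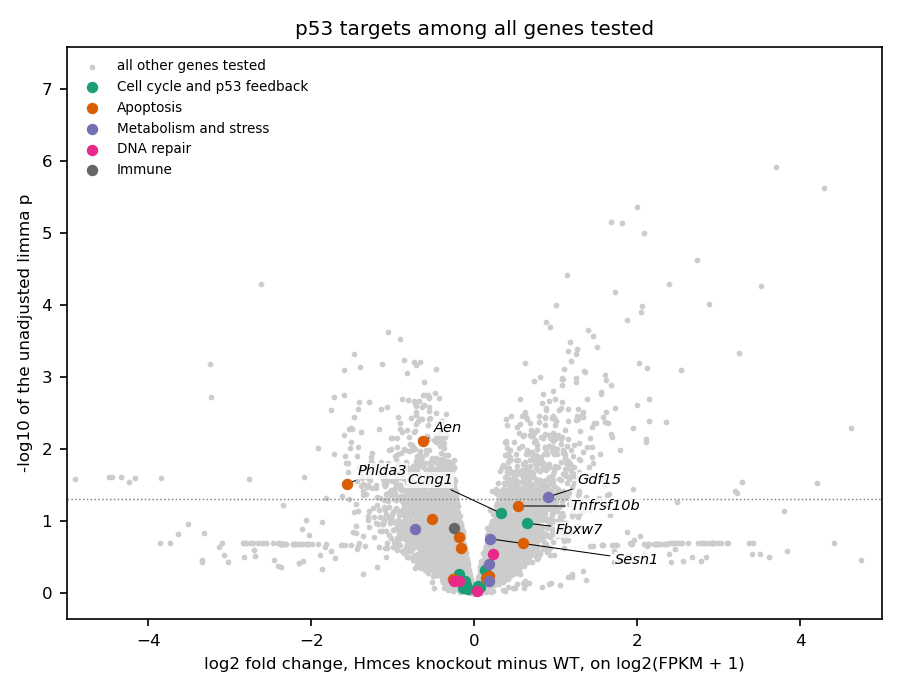
Fitted log2 fold change (Hmces knockout minus WT) against -log10 of the unadjusted limma p for the 11532 genes tested (grey), with the 30 p53 targets coloured by functional group and 7 of them named. The dotted line marks an unadjusted p of 0.05, 15 genes beyond a log2 value of 5 in either direction lie outside the plot, and the p53 targets sit inside the grey cloud.

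Replicate spread set much of what could be seen. The pooled within-genotype SD of log2(FPKM + 1) ran from 0.11 for Sesn1 to 0.997 for Plk3, with a median of 0.34 over the 30 members, beside 0.31 over all genes tested. Bax (0.13), Ccng1 (0.14) and Cdkn1a (0.16) were among the steadiest members, and Phlda3 (0.90), Rrm2b (0.84) and Bbc3 (0.80) among the least steady. Knockout replicate 2 was the lowest of the 6 libraries for 10 members (33.3%) and for 20.8% of all genes tested. Those members were Plk2, Plk3, Bbc3, Phlda3, Trp53inp1, Bax, Rps27l, Dcxr, Ddb2 and Tap1. The same library was the highest for 9 members (30%), against 23.4% of all genes tested. Without it, the sign of the log2 fold change differed for 6 of the 30 members (Mdm2, Plk2, Plk3, Bbc3, Sesn2 and Ddb2), 17 were positive, and 0 were called.

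None of the genes that control p53 passed the test. Of 38 regulators, 35 entered it (Trp63, Cdkn2a and Ppp1r13l did not), 21 with a positive log2 fold change, and the median was 0.05. At an unadjusted limma p under 0.05 there were 3 of 35 (8.57%), 2 higher and 1 lower, against 9.16% of all genes tested. Knockout and WT libraries were separate for 6 of 35 (17.1%), against 15.8%. Trp53 itself read 239, 255 and 221 FPKM in knockout libraries and 199, 227 and 285 FPKM in WT libraries. Its ranges overlapped and the log2 fold change was 0.02 (95% interval -0.32 to 0.36, limma adjusted p = 0.980). Mdm4, the MDM2 relative that masks the p53 activation domain, read 13.7, 24.3 and 19.9 FPKM in knockout libraries and 14.4, 16.3 and 19.5 FPKM in WT libraries. Cdkn2a, whose ARF product inhibits MDM2, and Trp63, the p63 gene, were listed at 0 in all 6 libraries.

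Chek2, the checkpoint kinase gene downstream of ATM, read 28.4, 28.6 and 26.2 FPKM in knockout libraries and 19.5, 19.9 and 23.2 FPKM in WT libraries. The groups did not overlap, with a log2 fold change of 0.40 (SE 0.16, limma adjusted p = 0.530). Usp7, the deubiquitinase that stabilizes MDM2 and p53, read 7.49, 11.1 and 6.65 FPKM in knockout libraries and 4.62, 5.30 and 2.60 FPKM in WT libraries (log2 fold change 0.87, limma adjusted p = 0.502). Smyd2, a lysine methyltransferase that represses p53, read 81.4, 83.6 and 65.4 FPKM in knockout libraries and 87.3, 104 and 101 FPKM in WT libraries (log2 fold change -0.34, limma adjusted p = 0.536). Both were also separated by genotype.

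A list of 47 other reported p53 targets gave the same count of calls, 0 of 40 tested. Their median log2 fold change was -0.10, with 17 positive and 23 negative. At an unadjusted limma p under 0.05 there were 5 (12.5%), against 9.16% of all genes tested. All 5 were higher in knockout libraries, against 4.32% of all genes tested, and they include Dram1, which entered the test through its knockout level. The list was chosen with earlier results of these data known, so these shares are a description and not a test. The groups did not overlap for 9 (22.5%), 5 higher and 4 lower, against 15.8% of all genes tested (7.47% higher and 8.34% lower). The 4 lower were Fdxr, Sfn, Fancc and Prkab1, with log2 fold changes of -0.28, -0.30, -0.44 and -0.42, and the 5 higher are given below. Casp1, which encodes the inflammatory caspase, read 53.8, 47.3 and 53.4 FPKM in knockout libraries and 26.4, 26.6 and 34.2 FPKM in WT libraries (log2 fold change 0.81, SE 0.16, limma adjusted p = 0.217). Btg2, an antiproliferative gene that is also an immediate early gene, read 72.9, 67.8 and 109 FPKM in knockout libraries and 45.4, 50.5 and 43.5 FPKM in WT libraries (log2 fold change 0.80, SE 0.19, limma adjusted p = 0.324). For both genes each knockout library was above each WT library.

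Gadd45b, a stress signalling gene, read 19.8, 24.6 and 26.3 FPKM in knockout libraries and 14.1, 15.01 and 7.92 FPKM in WT libraries (log2 fold change 0.92, limma adjusted p = 0.421). Its relative Gadd45a, a classical p53 target, read 12.9, 5.15 and 2.31 FPKM in knockout libraries and 4.53, 7.29 and 5.98 FPKM in WT libraries, with overlapping groups; it was singled out after its values were seen. Dram1, a lysosomal gene of p53-dependent autophagy, read 2.21, 3.11 and 3.74 FPKM in knockout libraries and 0.553, 0.467 and 1.19 FPKM in WT libraries (log2 fold change 1.22, limma adjusted p = 0.415). Pvrl4, the nectin-4 gene, read 6.24, 2.78 and 5.82 FPKM in knockout libraries and 1.34, 2.35 and 0.622 FPKM in WT libraries (log2 fold change 1.29, limma adjusted p = 0.479). The WT mean of Dram1 was 0.735 FPKM, under the level set for testing. The same knockout libraries held the higher summed level of granulocyte and monocyte markers, and its part in these 5 differences was not tested.

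**Figure D5:**
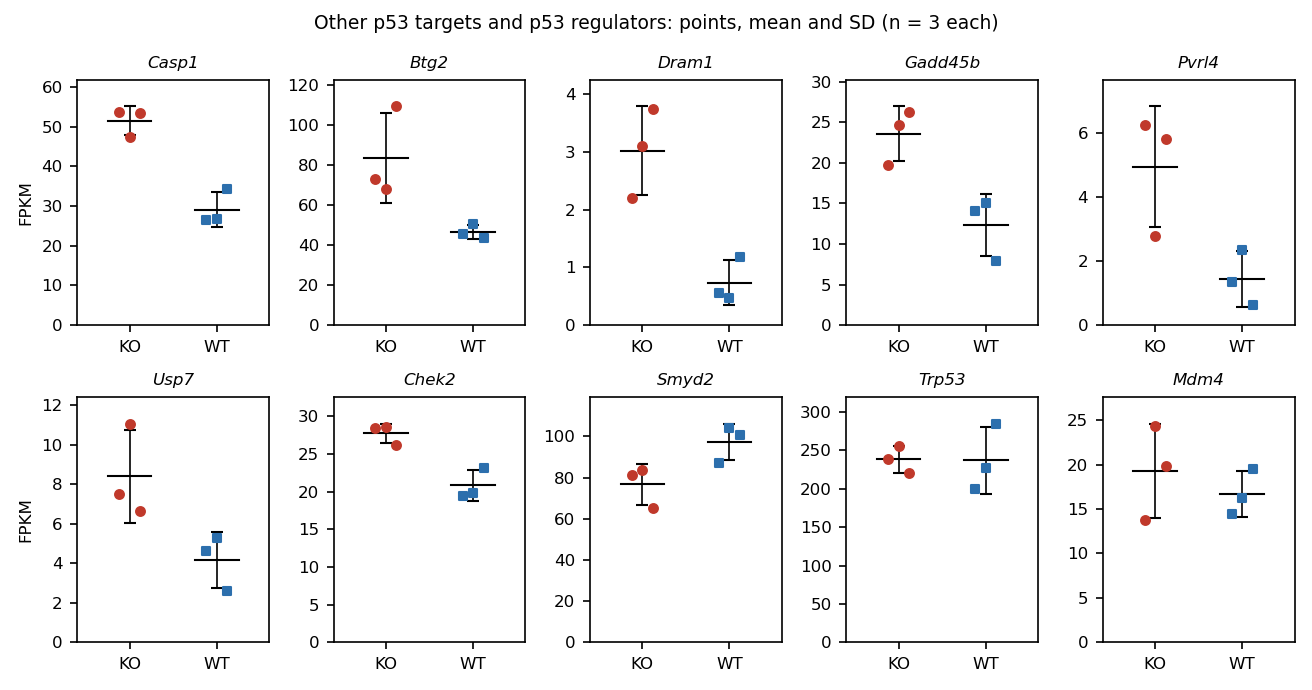
FPKM in each Hmces knockout (KO, red circles) and WT (blue squares) library, with the mean and SD of 3 libraries, for the 5 other p53 targets and 3 p53 regulators with an unadjusted limma p under 0.05, and for Trp53 and Mdm4. Knockout and WT libraries are separate for the first 8 genes and overlap for Trp53 and Mdm4.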

How the data were processed

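RNA sequencing of sorted LT-HSCs gave 6 libraries, 3 Hmces knockout and 3 WT, from paired-end reads of 150 bp. The values are FPKM per gene as deposited by the authors in 1 table. TopHat2 2.1.1, Cufflinks 2.2.1 and the build mm9 are listed in the submitters' processing notes. Options, annotation and use of strand: not given in the sources used here, so overlapping genes are uncertain. FPKM is relative to the other transcripts of a library, and a 0 can be a failed estimate.

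Genes with a mean of at least 1 FPKM over the 6 libraries were fitted as log2(FPKM + 1) with limma 3.58.1 in R 4.3.3 (mean-variance trend, genotype as the only term, two-sided) and Benjamini-Hochberg adjustment over all 11532. Log2 fold changes are knockout minus WT and understate changes of low genes. The fit was tested on simulated data with independent noise in each gene and large added changes, so smaller changes were not covered. The p-values reflect only how far these libraries differ, which may be technical. The smallest FPKM steps gave an estimate of depth, in 982 genes with 1 annotated transcript over 1500 nt, assuming fragments of 200 nt. No count test was run. Promoters and overlapping exons came from RefSeq and GENCODE tables of GRCm38, another build than mm9, and no coordinate was carried between them.

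The members and lists were chosen with earlier results of these data known. Values in every library are given for Cdkn1a, Mdm2, Ccng1, Bax, Bbc3, Pmaip1, Trp53inp1, Phlda3, Zmat3 and Gdf15, for members with an unadjusted p under 0.05 or groups that did not overlap, for genes of the other lists with an unadjusted p under 0.05, and for Trp53, Mdm4 and Hmces. Psrc1, Plk2, Plk3, Fas, Perp, Dcxr, Ephx1, Xpc, Ddb2, Rrm2b and Tap1 were added to these after their values were seen. The 15 alternatives covered pseudocounts, filters, variance models, scaling, a replicate block and leaving out each library.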

Additional observations from a re-analysis of the deposited data

How the results depend on the processing

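No p53 target, p53 regulator or other p53 target was called under any of the 15 alternative fits, and the smallest adjusted p of the 22 genes followed through them was 0.122, for Casp1. Of these genes, 17 kept the sign of their log2 fold change throughout. Leaving out 1 library at a time, Mdm2 ran from -0.057 (without knockout replicate 2) to 0.19 and was -0.019 without WT replicate 2, Trp53inp1 ran from -0.076 (without knockout replicate 1) to 0.46, and Bbc3 ran from -0.61 to 0.32 (without knockout replicate 2). Trp53 was at -0.096, -0.0024 and -0.029 without WT replicate 1, WT replicate 2 and knockout replicate 2, and at most 0.16, and Mdm4 ran from -0.0040 (without knockout replicate 2) to 0.39. The median over members was 0.046 with no filter on low values (37 members) and ran from -0.14 (without knockout replicate 1) to 0.067 when 1 library was left out. Over all genes, the 13 calls became 1 with no filter, 6 without the variance trend, 20 with robust estimation, 32 without small RNA genes and 2 with the replicate block, and ran from 2 to 19 when 1 library was left out. The lower counts came without WT replicate 2 (7), knockout replicate 2 (5) and knockout replicate 3 (2). The same-numbered libraries had correlations of deviations of 0.080, 0.011 and 0.035, so the numbers were not taken as pairs. When 1 library was left out, Hmces ran from -3.78 to -2.27, the value without knockout replicate 2 (limma adjusted p = 0.046). With a pseudocount of 0.01 it was -4.10, Phlda3 was -3.99 and Dram1 was 2.11. Further, the 11 members with a promoter element became 7 with at most 2 mismatches. The 13 calls were 12 higher and 1 lower, and the split was 6 and 5 without WT replicate 1 and 4 and 3 without WT replicate 2. The cause of these shifts was not tested.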
